A study of Homo sapiens with 2 samples.

Results

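Mitochondrial ribosomal protein (MRP) genes are nuclear genes for the proteins of the mitochondrial ribosome. They were taken as protein-coding genes whose symbol begins with MRPL or MRPS and a number, which gave 77 of the 19974 protein-coding genes on chromosomes 1 to 22 and X, 49 MRPL and 28 MRPS genes on 21 chromosomes. Peaks were listed for 1 CUT&Tag library made with S9.6, an antibody against hybrids of RNA and DNA, from wild-type A549, a cell line from a human lung carcinoma. In CUT&Tag the antibody directs a transposase that cuts and tags nearby DNA. The series also names an IgG library of the same cells, not analysed here, and its title links the m6A reader YTHDF1 to R-loops and immune control. With 1 library there was no replicate, no test between conditions, and no way to tell more hybrids per cell from more cells with a hybrid. Shares of genes carry 95% Wilson intervals, which cover counting error only.

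The mitochondrial ribosome translates the few messages encoded by mitochondrial DNA, all of them for subunits of the oxidative phosphorylation complexes. Its RNA components are made inside the organelle, whereas all of its proteins are made in the cytosol and imported. Some of these proteins have counterparts in bacterial ribosomes and others were acquired during mitochondrial evolution. An R-loop forms when nascent RNA pairs with its DNA template, and R-loops are common at the starts of active, GC-rich genes.

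MRP genes carried S9.6 peaks about as often as protein-coding genes in general, and none of their peaks was among the tallest in the library. A peak with at least 1 base within 1000 bp of either end of the gene span, called a boundary peak here, was listed for 38 of 77 MRP genes (49.4%, interval 38.5 to 60.3), against 40.1% of all protein-coding genes, MRP genes included. The interval includes the share of all genes. A peak at a boundary or anywhere over the span was listed for 47 of 77 (61.0%, interval 49.9 to 71.2), against 60.4% of all protein-coding genes. Of these 47, 9 had peaks over the span alone, and the remaining 30 members had no listed peak. The 38 genes had 43 boundary peaks, none of which served 2 MRP genes.

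Peak height is given by the maximum coverage, the highest coverage value within a peak as the authors' peak caller wrote it. The strongest boundary peak of an MRP gene had a median maximum coverage of 3.5 and a range of 2 to 7. Over all 8001 protein-coding genes with a boundary peak the median was 4 and the range 1 to 46. A boundary peak of at least 3 was listed for 28 of 77 MRP genes (36.4%), against 32.2% of all genes. For a maximum of at least 5 the count was 10 of 77 (13%), against 14.5% of all genes. The total signal, the coverage summed over a peak, had a median of 1305 over the 43 boundary peaks of MRP genes and 1232 over the 8433 boundary peaks of all protein-coding genes. The lowest total signal on these chromosomes was 745. Several MRP peaks were close to that floor, with totals of 746 at MRPL13 and 754 at the outer boundary of MRPL34.

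**Figure D1:**
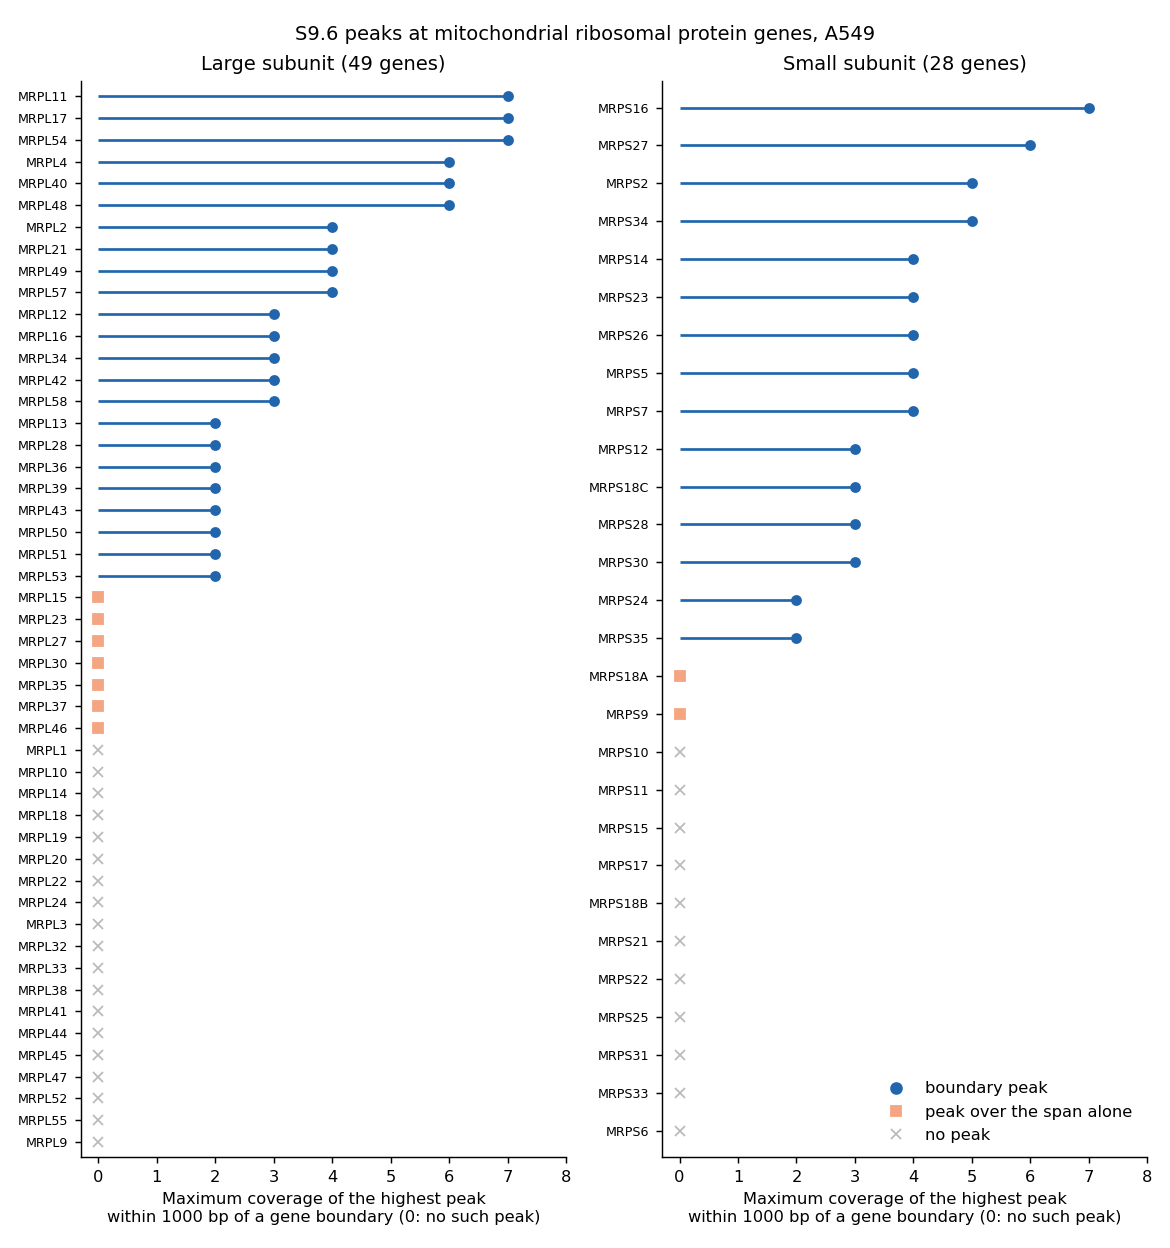
Maximum coverage of the highest boundary peak of each MRP gene, by subunit, with 1 row per gene. Circles are genes with a boundary peak, squares genes with a peak over the span alone and crosses genes with no listed peak. The highest value is 7 in both subunits, in the small subunit from a peak outside the span of MRPS16, beyond its end.

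Of the large subunit genes, 23 of 49 had a boundary peak (46.9%, interval 33.7 to 60.6), and of the small subunit genes 15 of 28 (53.6%, interval 35.8 to 70.5). The difference of -6.63 percentage points had an interval of -28.1 to 15.8, which includes 0 and was not tested. Classes follow the structural naming of the proteins, but subunits were taken from the symbols, which do not follow the structure in every case. MRPS30 and MRPS18A encode proteins that sit in the large subunit.

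Among large subunit proteins with a bacterial counterpart, 11 of 30 genes had a boundary peak (36.7%, interval 21.9 to 54.5). Among those without a counterpart, 12 of 19 did (63.2%, interval 41.0 to 80.9). For the small subunit the counts were 9 of 16 with a counterpart and 6 of 12 without. The intervals of the 4 groups overlap, and the groups were not tested against each other.

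**Figure D2:**
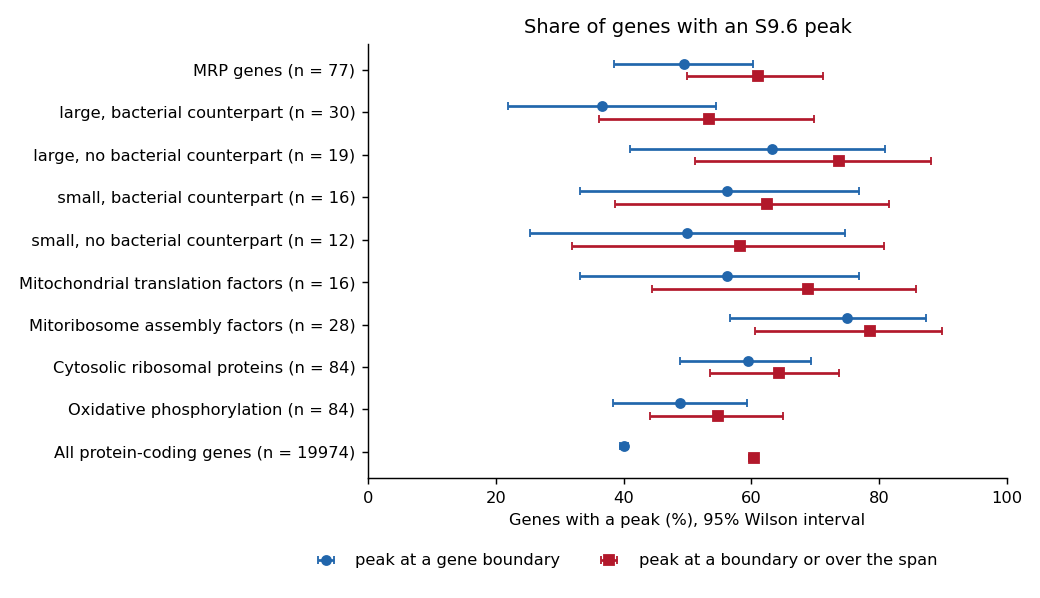
Percentage of genes with an S9.6 peak at a gene boundary (circles) and at a boundary or over the span (squares), with 95% Wilson intervals and the number of genes. MRP genes stand at 49.4% and 61.0%, and all protein-coding genes at 40.1% and 60.4%.

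The tallest boundary peaks of large subunit genes with a bacterial counterpart were at MRPL17, MRPL11 and MRPL4. MRPL17, on chromosome 11 at 6680385 to 6683340, encodes bL17m. Its peak at 6683000 to 6683730 covered 731 bp and had a total signal of 2462 and a maximum coverage of 7. MRPL11, which encodes the counterpart of the bacterial stalk-base protein L11, lies on chromosome 11 at 66435075 to 66438848. Its peak at 66438668 to 66439162 was narrower, at 495 bp, with a maximum of 7 and a total of 1574. MRPL4, the counterpart of a protein that lines the exit tunnel for new peptides, had a peak of maximum 6 and total 1717 on chromosome 19 at 10251575 to 10252168. These 3 peaks lay over the gene starts and within 1000 bp of no boundary of another protein-coding or lncRNA gene. MRPL2, for a protein near the peptidyl transferase centre, had the widest peak of any member (1895 bp, maximum 4, total 3388), which also touched a boundary of KLC4.

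The other peaks in this class were lower. MRPL21 had a maximum of 4, in the narrowest boundary peak of the family (316 bp). MRPL12, which encodes the L12 stalk protein, had peaks of maximum 3 at its start and at its end. MRPL16 and the outer boundary of MRPL34 also had 3. MRPL13, MRPL28 and MRPL36 had 2, and the MRPL36 peak also touched a boundary of NDUFS6, a respiratory complex I gene.

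Among large subunit proteins without a bacterial counterpart, the tallest boundary peaks were at MRPL54, MRPL40 and MRPL48. MRPL54 lies on chromosome 19 at 3762682 to 3767565, and its peak at 3762615 to 3763099 had a maximum of 7 and a total of 2058 within 485 bp. That peak had the highest mean coverage of the 15 tallest, 4.24 per base, and also touched boundaries of APBA3 and LOC105372248. MRPL40, for a protein of the central protuberance, lies on chromosome 22 at 19432545 to 19436075. Its peak at 19431696 to 19432561 (maximum 6, total 2778) lay almost wholly upstream and also covered the start of HIRA, a histone chaperone gene. MRPL48, another central protuberance protein gene, had a peak of maximum 6 and total 2184 on chromosome 11 at 73787568 to 73788713.

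Further down this class, MRPL49 and MRPL57 had a maximum of 4. The MRPL49 peak also covered the start of FAU, which encodes a cytosolic ribosomal protein fused to a ubiquitin-like protein. MRPL42 and MRPL58 had 3. MRPL58 encodes a peptidyl-tRNA hydrolase that rescues stalled mitochondrial ribosomes. MRPL39, MRPL43, MRPL50, MRPL51 and MRPL53 had 2.

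The small subunit genes with a bacterial counterpart were led by MRPS16 and MRPS2. The tallest peak counted for MRPS16 had a maximum of 7 and a total of 2675, on chromosome 10 at 73246929 to 73247972. It lay wholly outside the gene span (73248849 to 73252644), beyond the end, and touched boundaries of DNAJC9 and DNAJC9-AS1. The peak at the MRPS16 start had a maximum of 4. MRPS2 had the largest total signal of any member, 4696, in a peak of 1323 bp and maximum 5 on chromosome 9 at 135499886 to 135501208. That peak also touched a boundary of PIERCE1. MRPS14, MRPS5 and MRPS7, the last for a protein of the head of the subunit, had 4. MRPS12, for the decoding-centre protein uS12m, had 3, as did MRPS18C and MRPS28, and MRPS24 had 2. In 7 of the 9 genes, all but MRPS14 and MRPS5, a boundary peak also touched a boundary of another gene.

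Of the small subunit genes without a bacterial counterpart, MRPS27 had the tallest boundary peak and the most peaks of any member. It had a start peak of maximum 6 and total 971 on chromosome 5 at 72320154 to 72320626, a second upstream peak of maximum 3, and 3 peaks inside its span of 100838 bp. MRPS34 had 2 boundary peaks with maxima of 5 and 2. MRPS23 and MRPS26 had 4, MRPS30 had 3 and MRPS35 had 2. In 5 of the 6 genes, all but MRPS23, a boundary peak also touched a boundary of another gene, which was PTCD2 for MRPS27.

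The 9 genes with peaks over the span alone were MRPL15, MRPL23, MRPL27, MRPL30, MRPL35, MRPL37, MRPL46, MRPS18A and MRPS9. Their peaks had maxima of 2 to 4, the highest at MRPL15. Over the family, the 19 peaks inside a span and away from its boundaries had a median maximum of 2 and a median total signal of 946. The corresponding medians of the 43 boundary peaks were 3 and 1305. The inner peaks included 1 of maximum 5 in MRPL34, close to further starts listed for that gene.

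No peak was listed for 19 large subunit genes. With a bacterial counterpart these were MRPL1, MRPL3, MRPL9, MRPL10, MRPL14, MRPL18, MRPL19, MRPL20, MRPL22, MRPL24, MRPL32, MRPL33, MRPL47 and MRPL55. Without one they were MRPL38, MRPL41, MRPL44, MRPL45 and MRPL52, among them the gene for MRPL45, which contacts the inner membrane. In the small subunit there were 11, namely MRPS6, MRPS10, MRPS11, MRPS15, MRPS17 and MRPS21 with a counterpart and MRPS18B, MRPS22, MRPS25, MRPS31 and MRPS33 without. A gene without a listed peak may have signal under the authors' threshold.

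Boundary peaks were also counted by chromosome, each with 8 or fewer members, and the contrasts were not tested. On chromosome 11, 6 of 7 MRP genes had a boundary peak, against 37.4% of all protein-coding genes there. Leaving out olfactory receptors raised the latter share to 42.7%. The interval for the MRP share of chromosome 11, 48.7 to 97.4, lay above both values, with no allowance for the 21 chromosomes looked at. All 4 members on chromosome 19 carried such a peak, against 51.3% of all genes there. On chromosome 1 the count was 1 of 8, against 32.7% of all genes there, and on chromosome 3 it was 0 of 4, against 33.1%. Chromosome 6, where 16.7% of all protein-coding genes had a boundary peak, held 6 MRP genes, of which MRPL2 alone had one. MRPS18B, which lies in the major histocompatibility complex, had no peak within 100 kb either.

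Boundary peaks were most frequent in the shortest members. MRP genes had a median span of 8618 bp, against 24170.5 bp for all protein-coding genes. Of the 22 MRP genes under 5 kb, 18 had a boundary peak (81.8%, interval 61.5 to 92.7), against 35.5% of the 3160 protein-coding genes of that length. The 4 without one were MRPL9, MRPL41, MRPL55 and MRPS17. From 5 to 10 kb the count was 7 of 19, against 42.0% of all genes, and from 10 to 20 kb 5 of 18, against 44.3%. From 20 to 50 kb it was 5 of 11, against 43.6%, and from 50 kb upwards 3 of 7, against 36.7%. Leaving out olfactory receptors, which are short and rarely had a peak, put the share of all short genes at 38.0%. Short genes of 2 related families had shares close to that of the short MRP genes, with 30 of 39 cytosolic ribosomal protein genes under 5 kb (76.9%) and 14 of 19 oxidative phosphorylation genes (73.7%). Length classes were set after earlier results were known, and the contrast was not tested.

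**Figure D3:**
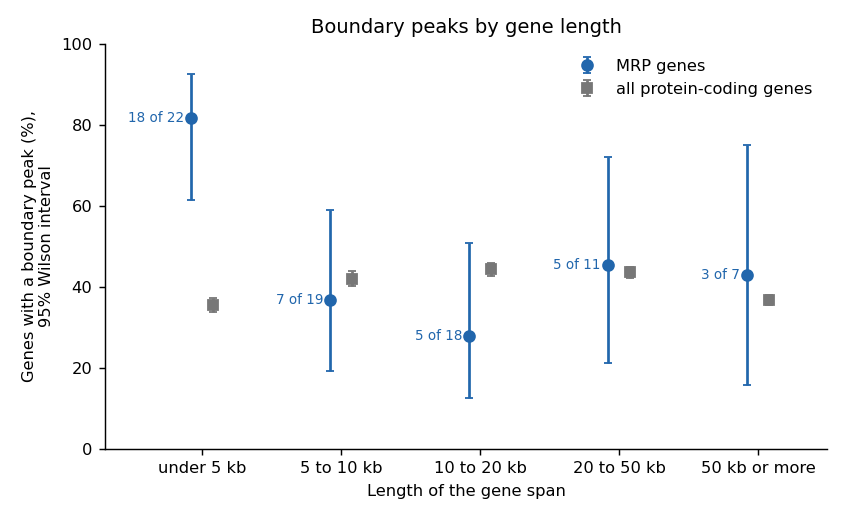
Percentage of genes with a boundary peak by length of the gene span, for MRP genes (circles, with counts) and all protein-coding genes (squares), with 95% Wilson intervals. The MRP share is 81.8% under 5 kb and between 27.8% and 45.5% in the longer classes.

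The number of peaks in the neighbourhood moved with the boundary peaks over the family as a whole. Members with a boundary peak had a median of 7.5 peaks within 100 kb outside the gene, and members with no peak had 4. Over all protein-coding genes these medians were 7 and 2. The contrast was seen in the large subunit, with 10.0 and 4, and not in the small, with 3 and 3. By bacterial counterpart, it was seen in large subunit genes with one (10.0 and 4) and small subunit genes without one (6 and 1). It ran the other way in large subunit genes without a bacterial counterpart (10.0 and 12.0) and small subunit genes with one (3 and 5). Each median by bacterial counterpart rests on 5 to 14 genes and is given without a spread. With 10 to 19 surrounding peaks, 17 of 24 MRP genes had a boundary peak, against 58.6% of all genes. With 0 to 4, 13 of 35 did, against 26.6%, with 5 to 9, 7 of 16, against 45.9%, and with 20 or more, 1 of 2, against 76.2%. The part of the neighbourhood in the family's share was not tested.

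The set of RefSeq promoters used here was partial and gave a strand and start for 15812 of the 19974 protein-coding genes. It held 69 members, whose starts could be told from their ends. The 8 members missing from it were MRPL2, MRPL10, MRPL13, MRPL15, MRPL21, MRPL23, MRPL35 and MRPS28, among them every member on chromosome 8. A peak within 1000 bp of a listed start was found for 30 of 69 (43.5%, interval 32.4 to 55.2), against 38.4% of 15812 protein-coding genes with a listed start. A peak within 1000 bp of the end was found for 7 of 69 (10.1%, interval 5.00 to 19.5), against 11.4%. The genes with end peaks were MRPL12, MRPL28, MRPL43, MRPL53, MRPS16, MRPS24 and MRPS34. In MRPL53, whose span is 699 bp, a single peak covered start and end. The MRPL36 peak touched the outer edge of the span but neither a listed start nor the end.

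The summits, taken as the middle of the region of maximum coverage, lay close to the starts. Of the strongest start peaks of the 30 genes, 20 had a summit within 200 bp of the start (66.7%), against 45.3% of the 6065 start peaks of all protein-coding genes. In 24 the peak itself covered the start, a count with no share of all genes to set beside it. The summit was upstream in 19 of 30 (63.3%), against 59.7% of all genes, with a median position of -28 bp in MRP genes and -71 bp in all genes. The most distant was that of MRPL50, at -1150 bp.

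**Figure D4:**
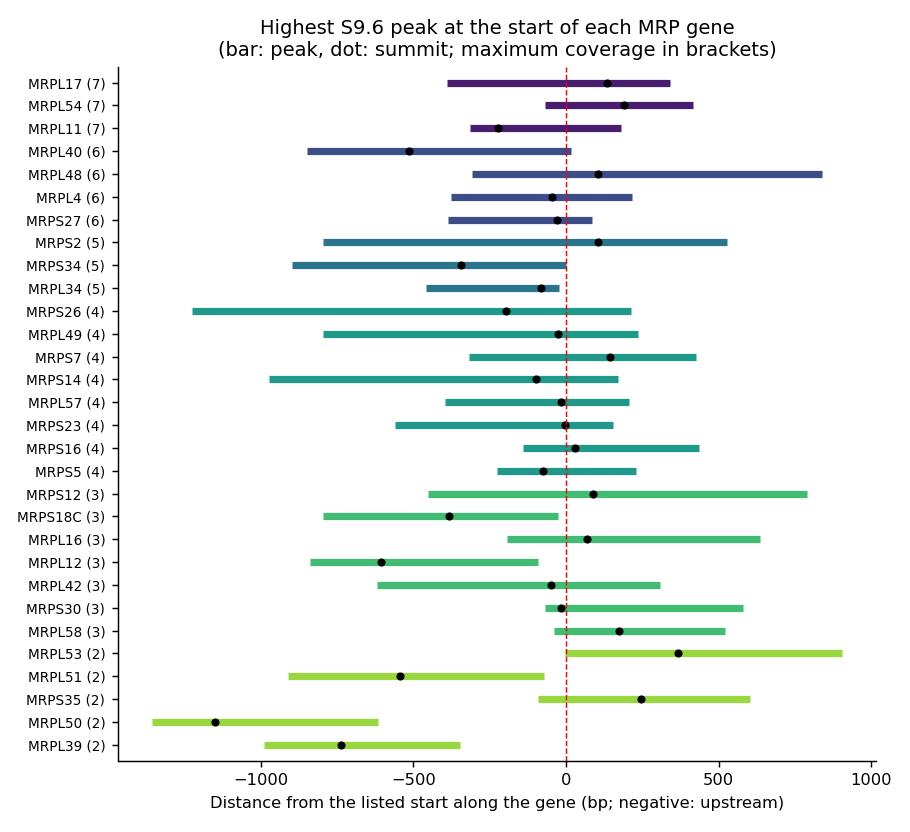
Extent (bar) and summit (dot) of the highest peak at the start of each of 30 MRP genes, against distance from the listed start in bp, ordered and coloured by maximum coverage. In 24 genes the bar crosses the start, and 20 summits lie within 200 bp of it.

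The promoters of 6 members with the tallest start peaks are shown for the sequence around their starts, from RefSeq on GRCh38.p14. MRPS27 had the same maximum of 6 as MRPL40, MRPL48 and MRPL4 and was left out by its lower total signal. Each runs 5′ to 3′ along the gene from 250 bases before the listed start to 50 bases from the start onwards. Capitals mark matches on either strand to CCGGAAG (ETS type), GCATGCG (NRF1 type), AAGATGG (YY1 type), CCAAT (NF-Y type) and GGGCGG (Sp1 type), and runs of capitals can join overlapping matches. The summits of MRPL11 (-223 bp) and MRPL4 (-44 bp) lay within the printed bases, and those of MRPL17 (134 bp), MRPL54 (191 bp), MRPL40 (-514 bp) and MRPL48 (104 bp) lay outside them. They lie at chr11:6683291-6683590 (minus strand), chr19:3762432-3762731 (plus strand), chr11:66438799-66439098 (minus strand), chr22:19432295-19432594 (plus strand), chr11:73787624-73787923 (plus strand) and chr19:10251701-10252000 (plus strand).
MRPL17: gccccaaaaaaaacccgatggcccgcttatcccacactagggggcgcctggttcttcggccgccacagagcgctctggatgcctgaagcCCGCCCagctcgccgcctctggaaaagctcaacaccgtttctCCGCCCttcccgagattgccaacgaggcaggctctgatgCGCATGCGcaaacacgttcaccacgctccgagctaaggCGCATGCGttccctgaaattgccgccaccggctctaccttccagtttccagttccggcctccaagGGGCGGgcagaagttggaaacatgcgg
MRPL54: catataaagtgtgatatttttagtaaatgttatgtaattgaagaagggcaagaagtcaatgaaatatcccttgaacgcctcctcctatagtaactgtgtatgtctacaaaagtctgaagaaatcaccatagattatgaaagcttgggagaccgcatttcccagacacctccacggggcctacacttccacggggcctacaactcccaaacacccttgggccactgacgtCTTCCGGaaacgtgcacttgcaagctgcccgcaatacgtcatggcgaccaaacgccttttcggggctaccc
MRPL11: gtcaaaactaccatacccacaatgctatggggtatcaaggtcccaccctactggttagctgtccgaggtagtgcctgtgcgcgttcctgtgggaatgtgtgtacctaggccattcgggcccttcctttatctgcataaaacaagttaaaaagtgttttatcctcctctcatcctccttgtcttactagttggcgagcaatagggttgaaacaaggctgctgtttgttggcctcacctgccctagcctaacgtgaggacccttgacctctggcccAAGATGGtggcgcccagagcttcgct
MRPL40: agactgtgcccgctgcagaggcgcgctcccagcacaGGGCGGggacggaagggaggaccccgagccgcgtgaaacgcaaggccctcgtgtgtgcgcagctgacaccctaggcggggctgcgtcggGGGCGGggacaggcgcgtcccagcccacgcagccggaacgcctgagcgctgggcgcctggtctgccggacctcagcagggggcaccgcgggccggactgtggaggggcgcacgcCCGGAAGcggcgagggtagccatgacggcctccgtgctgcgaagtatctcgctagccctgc
MRPL48: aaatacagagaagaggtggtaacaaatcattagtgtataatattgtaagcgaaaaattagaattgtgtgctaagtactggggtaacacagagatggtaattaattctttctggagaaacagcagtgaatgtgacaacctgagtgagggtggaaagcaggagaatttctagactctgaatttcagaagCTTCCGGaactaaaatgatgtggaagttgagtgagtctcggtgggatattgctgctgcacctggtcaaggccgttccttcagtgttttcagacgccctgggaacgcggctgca
MRPL4: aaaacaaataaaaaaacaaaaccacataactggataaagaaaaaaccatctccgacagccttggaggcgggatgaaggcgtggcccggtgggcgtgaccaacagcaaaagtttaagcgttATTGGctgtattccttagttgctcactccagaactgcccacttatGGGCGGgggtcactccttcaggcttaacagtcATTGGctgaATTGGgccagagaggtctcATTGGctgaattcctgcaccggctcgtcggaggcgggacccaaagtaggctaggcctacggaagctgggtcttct

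The promoters of the first 2 members in alphabetical order with no peak and a listed sequence are shown beside them. They are those of MRPL1 at chr4:77862580-77862879 (plus strand) and MRPL14 at chr6:44127259-44127558 (minus strand).
MRPL1: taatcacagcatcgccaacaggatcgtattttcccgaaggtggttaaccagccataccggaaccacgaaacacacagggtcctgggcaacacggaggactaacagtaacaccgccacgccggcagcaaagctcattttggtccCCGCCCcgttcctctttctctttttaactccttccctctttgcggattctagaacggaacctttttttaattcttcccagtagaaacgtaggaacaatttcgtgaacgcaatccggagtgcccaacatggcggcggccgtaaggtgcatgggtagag
MRPL14: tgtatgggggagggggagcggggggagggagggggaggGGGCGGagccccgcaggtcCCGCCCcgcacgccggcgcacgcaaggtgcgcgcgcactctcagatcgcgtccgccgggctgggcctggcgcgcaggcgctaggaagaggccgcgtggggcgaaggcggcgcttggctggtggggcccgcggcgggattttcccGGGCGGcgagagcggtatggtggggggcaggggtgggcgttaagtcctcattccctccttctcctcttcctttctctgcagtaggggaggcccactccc

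The GC content of these sequences did not follow the peaks. It was 73.7% at MRPL40 and 62.0% at MRPL17, but 43.3% at MRPL48 and 47.3% at MRPL54, which also have tall peaks. MRPL14, without a peak, had 73.7%, and MRPL1 had 51.7%. GC skew, the excess of G over C as a share of both along the gene strand, ranged from -0.161 at MRPL17 to 0.292 at MRPL48 among the 6 with a peak.

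Across the family, the 30 promoters with a start peak had a median GC content of 61.5%, and the 39 without had 59.0%. Over all protein-coding genes the medians were 65.7% with a start peak and 60.0% without. The median GC skew was -0.029 in MRP promoters with a start peak and 0.017 in those without, against 0.010 and 0.007 over all genes. The ratio of observed to expected CpG was 0.854 with a start peak and 0.922 without, against 0.841 and 0.670 over all genes. The median of MRP promoters without a start peak was above the upper quartile of all promoters without one, which was 0.876.

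Motifs of the ETS and YY1 types were frequent in MRP promoters. Members of the ETS family and YY1 are known regulators of housekeeping and mitochondrial genes. CCGGAAG was found in 29 of 69 promoters (42.0%, interval 31.1 to 53.8), against 14.1% of all 15812 protein-coding promoters of this length. AAGATGG was found in 23 of 69 (33.3%, interval 23.4 to 45.1), against 6.36%. The shares of GCATGCG were 10.1% and 5.15%, those of CCAAT 29.0% and 36.4%, and those of GGGCGG 59.4% and 58.3%.

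Among MRP genes, start peaks were about as frequent with the ETS and YY1 types as without them. A start peak was listed for 13 of 29 promoters with CCGGAAG (44.8%) and 17 of 40 without (42.5%). For AAGATGG the counts were 10 of 23 and 20 of 46, 43.5% in each. Over all genes, promoters with CCGGAAG had a start peak in 49% of cases and those without in 36.6%. For GCATGCG the MRP counts were 2 of 7 with and 28 of 62 without, and for CCAAT 7 of 20 and 23 of 49, lower with the motif in each case. Over all genes the shares were higher with the motif, at 51.2% and 37.7% for GCATGCG and 39.8% and 37.5% for CCAAT. The MRP intervals with and without each of these motifs overlap. GGGCGG gave the widest contrast over all genes, 47.3% with and 25.9% without, and 20 of 41 against 10 of 28 in MRP genes. A match is a description of the letters and not of a bound site.

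**Figure D5:**
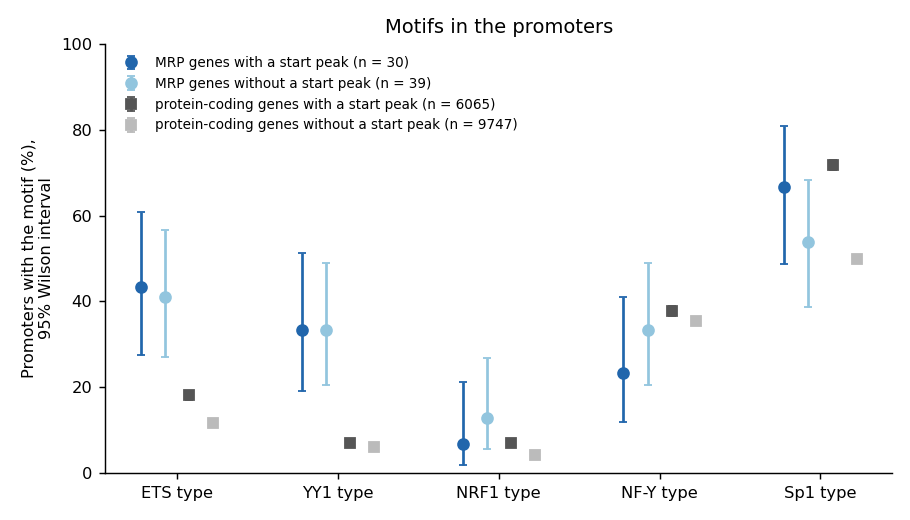
Percentage of promoters with each motif on either strand, with 95% Wilson intervals, for MRP genes (circles) and all protein-coding genes (squares) with and without a start peak. The ETS type is found in 43.3% and 41.0% of MRP promoters with and without a peak, against 18.1% and 11.7% of all promoters.

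Many MRP genes share their promoter region with a neighbour. A divergent partner, meaning a protein-coding or lncRNA gene that starts on the other strand within 1000 bp upstream, was listed for 26 of 69 members (37.7%, interval 27.2 to 49.5), against 22.1% of all protein-coding genes. The starts of the 26 distinct pairs were 41 to 990 bp apart, with a median of 145.5 bp. Members with a partner had a start peak in 14 of 26 cases (53.8%, interval 35.5 to 71.2), against 56.1% of all genes with a partner. Members without one had a start peak in 16 of 43 (37.2%, interval 24.4 to 52.1), against 33.3% of all genes without one. In each class the MRP interval included the share of all genes.

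Of the boundary peaks, many could belong to another gene. In 24 of the 38 members with a boundary peak (63.2%, interval 47.3 to 76.6), a boundary peak also lay within 1000 bp of a boundary of another protein-coding or lncRNA gene, against 51.4% of all protein-coding genes with a boundary peak. Of the 15 divergent pairs with a start peak, the peak covered the starts of both genes in 9, that of the MRP gene alone in 3 and that of the partner alone in 2. The summit was nearer the MRP start in 10 and nearer the partner in 5. These pairs hold 14 members, because the single MRPL54 peak was counted for both of its partners. The peaks were chosen by distance from the MRP start, which favours the MRP side in these counts. No share of all genes with a divergent partner was computed to set beside these counts. The peak of MRPS12 covered the start of SARS2, the mitochondrial seryl-tRNA synthetase gene, 181 bp away, and had its summit nearer MRPS12. Summits were nearer the partner for MRPL40, MRPL49, MRPL50, MRPL51 and MRPS18C, the last beside the DNA helicase gene HELQ. MRPL46 and MRPS11 are divergent partners of each other, with starts 320 bp apart, and neither had a start peak. Nor had MRPL18 beside the chaperonin gene TCP1 or MRPL32 beside the proteasome gene PSMA2.

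Other genes of mitochondrial translation were set beside the family. Of 5 mitoribosomal proteins without an MRP symbol, AURKAIP1 and DAP3 had a boundary peak of maximum 3, PTCD3 had a peak over the span alone, and CHCHD1 and GADD45GIP1 had none. Of 16 mitochondrial translation factors, 9 had a boundary peak (56.2%, interval 33.2 to 76.9), with maxima of 9 at TUFM, the mitochondrial elongation factor Tu, and 4 at LRPPRC, MTIF3 and OXA1L. GFM1 and GUF1 had no peak, and MRRF, the gene of a ribosome recycling factor, had one over its span alone. Of 28 assembly and rRNA modification factors, 21 had a boundary peak (75%, interval 56.6 to 87.3). Maxima there were 9 at MTERF3, 7 at RBFA, a small subunit maturation factor, and 6 at the rRNA methyltransferase genes METTL15 and TFB1M. DDX28, ERAL1 and FASTKD2 had none. These shares stand against 40.1% of all protein-coding genes.

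The families most like this one had similar or higher shares. Of 84 cytosolic ribosomal protein genes and close paralogues, 50 had a boundary peak (59.5%, interval 48.8 to 69.4), and of 84 nuclear oxidative phosphorylation genes 41 did (48.8%, interval 38.4 to 59.3). Their median maximum was 4 each, against 3.5 for MRP genes, and their highest were 24 and 22, against 7. The intervals of the 3 families overlap, and the differences were not tested.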

How the data were processed

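The S9.6 library had 1 deposited peak list, whose signal columns hold the total and the maximum coverage of each peak in whole, apparently unscaled numbers. The sequencing depth is unknown. The submitters' processing notes list SEACR 1.3, Bowtie2 2.4.2, fastp 0.23.2, deepTools 3.5.2, SAMtools 1.9 and bedtools 2.30.0, and GRCh38 as the build, with no roles. How peaks were thresholded, which control was used and how duplicate or multiply mapped reads were handled is not given in the sources used here. Units rest on the values alone, and 0 of 47810 peaks had a total above its width times its maximum. Of all peaks, 45756 lay on chromosomes 1 to 22 and X and were used, and the other 2054 were not.

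Gene spans and promoters came from RefSeq tables of GRCh38.p14. Windows reached 1000 bp from a boundary and an overlap of 1 base counted. Overlaps were computed in Python 3.11.15 with pandas 2.3.3, and the code was tested on simulated peaks. Intervals are 95% Wilson intervals (scipy 1.17.1) and, for the difference of 2 shares, Newcombe's. Promoter values use the outermost listed start of each gene. Members and lists were chosen with earlier results of these data known, and classes of length, neighbours and surrounding peaks were added after seeing values. Named genes were every member, and in other lists the 3 highest boundary peaks, with ties, and the first 3 genes in alphabetical order without one. Ties among printed promoters were settled by total signal. A549 identity could be checked only by peaks: 4 of 5 epithelial, 2 of 3 alveolar, 1 of 3 leukocyte, 1 of 2 endothelial and 1 of 2 fibroblast marker genes had a boundary peak, which gives no RNA level.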

Additional observations from a re-analysis of the deposited data

How the results depend on the processing

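The number of MRP genes with a boundary peak, 38 of 77, stayed within 1.5 times under 7 of 9 alternatives. With peaks of maximum coverage 5 or more it was 10 (13%, against 14.5% of all genes). With only peaks that touch no other gene boundary it was 15 (19.5%, against 23%), so in these 2 settings the family was below all protein-coding genes. In the other 7 it was above them, with 44.2% against 35.3% for windows of 500 bp and 57.1% against 45.8% for 2000 bp. Windows of 500 bp lost MRPL21, MRPL43, MRPL50 and MRPS24, and 2000 bp added MRPL23, MRPL27, MRPL37, MRPL41, MRPL46 and MRPS11. The count with any peak (boundary or span), 47, was 31 at maximum coverage 3 or more (40.3%, against 44.6% of all genes). At 5 or more this count was 11 (14.3%, against 17.8%). Its share of 61.0% fell below that of all genes in 6 of 8 alternatives. At 5 or more the median maximum could not be below 5 by construction, and it was 6 in MRP genes and 6 in all genes. In that setting 6 of 10 members shared a boundary peak with another gene, a count with no share of all genes to set beside it. The large minus small subunit difference was negative under 7 of 8 alternatives and 0 with windows of 2000 bp. The count of start peaks, 30 of 69, was 24 to 36 under 7 alternatives, and 10 (14.5%, against 15.1% of all genes) with maximum coverage 5 or more. That setting, the peaks of higher total signal, windows of 2000 bp and the overlap by peak length were added for start peaks after seeing the data. No paired analysis was possible because each antibody had 1 library. Coverage values were low, with a median maximum of 2 over all peaks. If these values are unscaled, many listed peaks rest on a coverage of 2 or less.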

Other observations

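The same symbol pattern also names genes that are not protein-coding. MRP genes have left many pseudogenes, copies that could draw reads from their parents. Of 105 MRP pseudogenes, 2 had a boundary peak (1.9%, interval 0.524 to 6.68), against 7.20% of 16664 pseudogenes in all. They were MRPS6P1 on chromosome 1 and MRPS24P1 on chromosome 11, each with a maximum coverage of 2. MRPS31P2 had a peak over its span alone. The parents MRPS6 and MRPS31 had no listed peak, and MRPS24 had a peak of maximum 2 at its end.

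Of 7 lncRNA genes named after a neighbouring MRP gene, 3 had a boundary peak, against 18.2% of all lncRNA genes. MRPS30-DT and MRPS35-DT start beside MRPS30 and MRPS35 and shared their peaks, of maximum 3 and 2. MRPS9-AS1 had a peak of maximum 3, whereas MRPS9 had a peak over its span alone. MRPL20-DT, MRPL20-AS1, MRPL23-AS1 and MRPS9-AS2 had none.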
